A study of Mus musculus with 10 samples.

Results

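The genes described here are 10 members of the serpin family of protease inhibitors in the pancreas of newborn mice: Serpini2, Serpina3n, Serpina3g, Serpina6, Serpinb1a, Serpinb6a, Serpinb9, Serpine2, Serpinf1 and Serpini1. They were chosen by name as acinar, acute phase and stromal serpins, with earlier results of these data known. All 10 were found among the 24062 genes of the count files, which hold 63 genes whose symbol starts with Serpin. The samples were whole pancreas RNA of C57BL/6 mice at post natal day 5, with 5 WT and 5 KSR23 mice and 1 library per mouse. KSR23 mice carry R23, a cassette for both subunits of IL-23 placed behind a floxed STOP in the ROSA26 locus, together with a Cre driven by the human keratin 14 promoter. The cassette is thus switched on where keratin 14 is expressed, mainly in keratinocytes, and the WT mice were littermates. The labels number 5 replicates per group, taken here as separate mice, and name no litter, so p-values measure the spread between these libraries alone.

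Most serpins are suicide inhibitors: a protease cuts an exposed loop, the serpin snaps into a new fold, and both stay locked together by a covalent bond. Clade A members are largely secreted plasma proteins, several of them made in the acute phase response, and clade B members stay mainly inside cells, where they guard against the granule proteases of leukocytes. The exocrine pancreas makes digestive proteases in bulk as inactive zymogens, and protease inhibitors are part of its protection against early activation. A few serpins do not inhibit proteases at all and carry hormones or act as signals instead.

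In KSR23 pancreas, 5 of the 10 genes were higher and 1 was lower in the quasi-likelihood test of edgeR, at a p under 0.05 after Benjamini-Hochberg (BH) adjustment over all tested genes. Serpini1, Serpina3g, Serpinb1a, Serpine2 and Serpinb9 rose and Serpinb6a fell, while Serpini2, Serpina6 and Serpinf1 were not called. The tenth gene, Serpina3n, had fewer than 5 counts in 3 WT libraries and did not enter this test, but it stood higher in every KSR23 mouse. Across all 13882 genes tested, 31.0% were called, 16.2% higher and 14.8% lower, so calls were common in this comparison. Levels are given as CPM, counts per 1000000 counts of a library whose size was scaled by TMM, and FC is the fold change of KSR23 over WT. The median log2 FC of the 9 serpins tested was 0.49, beside -0.01 over all tested genes. In 4 of the 9 no WT value overlapped a KSR23 value, which was the case for 19.4% of all tested genes. Since the genes were chosen with earlier results known, this median and these counts describe them and do not test the family.

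**Figure D1:**
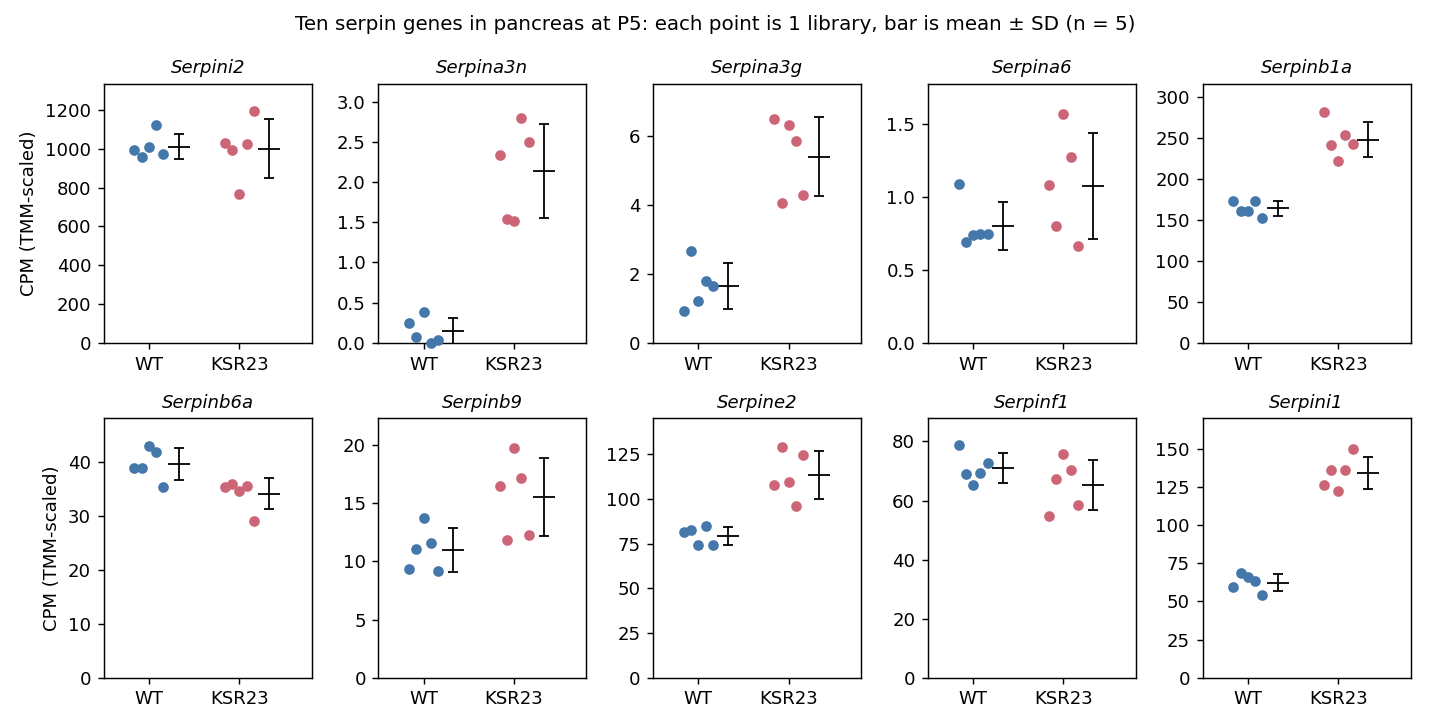
Level of each of the 10 serpin genes in CPM (counts scaled to library size by TMM) in 5 WT and 5 KSR23 libraries, with 1 point per library and the mean ± SD beside them. Each panel has its own axis from 0. Serpina3n, Serpina3g, Serpinb1a, Serpine2 and Serpini1 have all 5 KSR23 points above all 5 WT points, and Serpini2 has overlapping groups near 1000 CPM.

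The WT libraries held 26830235 to 33189132 counts and the KSR23 libraries 16715976 to 57784136, and 3 counts correspond to 0.0536 to 0.168 CPM. Alignments that were not unique, and so not counted, made up 49.64 to 53.73% in WT and 38.49 to 42.46% in KSR23 libraries. The effect of this difference on the levels was not tested. The smallest library, KSR23 replicate 3, stood apart from the other 4 KSR23 libraries on the second principal component (a score of 33.4 against -13.3 to -2.31). The library also had the highest summed level of 10 neutrophil marker genes, 438 CPM against 43.9 to 102 CPM in the other KSR23 and 12.8 to 46.1 CPM in the WT libraries. Il23a, which encodes the IL-23 subunit p19 of the cassette, had 0.037 to 0.316 CPM in WT and 0.857 to 1.21 CPM in KSR23 pancreas, while Il12b, which encodes p40, overlapped between WT (0 to 0.240 CPM) and KSR23 pancreas (0.0889 to 0.327 CPM). WT replicates 1 and 2 had 692 and 729 CPM of Reg3b, a secreted lectin, against 4.73 to 14.6 CPM in the other WT libraries. All KSR23 libraries lay far above, at 14210 to 29260 CPM. The summed level of 10 acinar marker genes was 290700 to 323600 CPM in WT and 161400 to 202200 CPM in KSR23 pancreas, so the tissue label held in every library. In whole tissue, fewer cells of a type and less RNA per cell cannot be told apart.

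Serpini2 (pancpin) is a secreted serpin made mainly by acinar cells, and mice that lack it lose acinar cells. The gene lies on chromosome 3 (75242370 to 75270078, minus strand, GRCm38). It had 994, 956, 1009, 1124 and 972 CPM in WT replicates 1 to 5 and 1027, 992, 765, 1022 and 1192 CPM in KSR23 replicates 1 to 5. The lowest and the highest value both belonged to KSR23 mice, and the groups overlapped. The means were 1011 ± 66.3 CPM in WT and 999.6 ± 153 CPM in KSR23 (SD, n = 5 each). The log2 FC was -0.02 with a standard error (SE) of 0.0984 and a BH-adjusted p of 0.92, and the 95% interval of the fold ran from 0.857 to 1.14. Changes within this interval could not be told from none. Its sign depended on the scaling and on single libraries: the log2 FC was 0.07 with libraries scaled by their totals alone, 0.07 without KSR23 replicate 3 and 0.02 without WT replicate 4.

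Other acinar genes moved in both directions. Of the 10 acinar marker genes 9 were lower, 1 was not called, and the median log2 FC was -1.07. Of 6 trypsinogen genes, which acinar cells express as well, 4 were higher, 1 was lower and 1 was not called, with a log2 FC from -0.97 for Try10 to 0.93 for Prss3. Serpini2 had 3.11, 3.29, 3.24, 3.47 and 3.27 counts per 1000 counts of the acinar markers in WT replicates 1 to 5, and 6.37, 5.14, 4.25, 5.63 and 5.89 in KSR23 replicates 1 to 5. Every KSR23 mouse lay above every WT mouse. The log2 ratio was -8.26 ± 0.0572 in WT and -7.53 ± 0.224 in KSR23 (SD, n = 5 each), a difference of 0.72, or 1.65-fold (p = 0.00794 in a two-sided exact permutation test, which 5 mice against 5 cannot go below). The direction depended on the acinar genes taken. With the 6 trypsinogen genes added to the markers the difference in log2 ratio was 0.38, and with the trypsinogen genes in place of the markers it was -0.42, with no overlap between the groups (two-sided exact permutation tests, p = 0.016 and 0.00794; both chosen after seeing the data). Trypsinogen genes are near copies of each other, so their counts of unique alignments are uncertain. Serpini2 thus lay between these groups of acinar genes, and the ratio does not say which gene moved per cell.

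**Figure D2:**
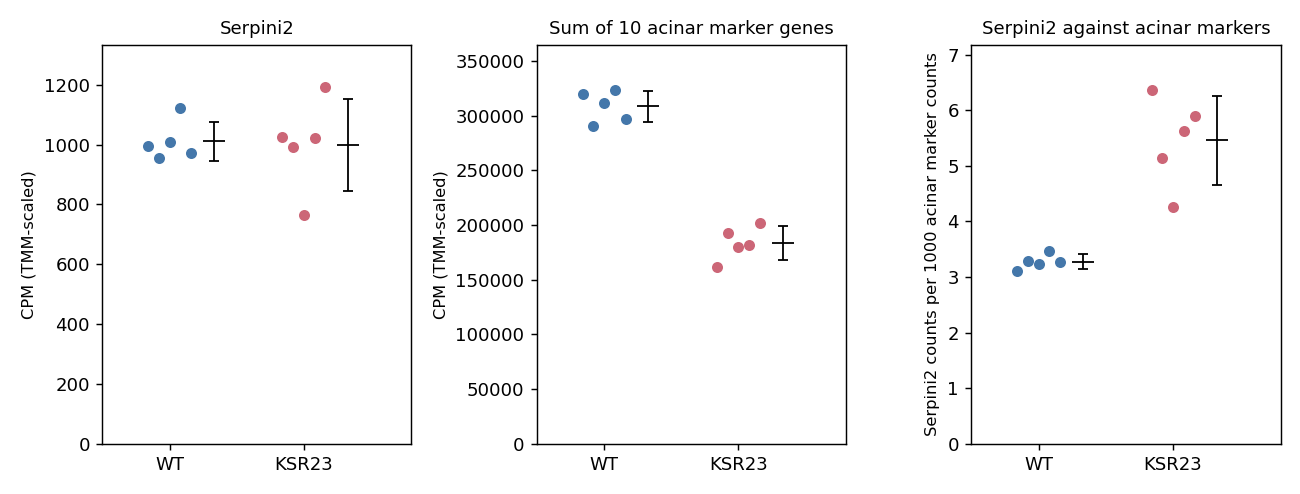
Serpini2 against the markers of acinar cells in 5 WT and 5 KSR23 libraries, 1 point per library: the Serpini2 level (CPM), the summed level of 10 acinar marker genes (CPM) and Serpini2 counts per 1000 acinar marker counts. Serpini2 overlaps between the groups, the marker sum is lower in all 5 KSR23 libraries, and the ratio to these markers is higher in all 5 (4.25 to 6.37 against 3.11 to 3.47), which was not so for the ratio to trypsinogen genes.

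Serpini2 was also the most abundant serpin. Per kilobase of the longest coding transcript, its WT level was 717 CPM, beside 85.5 for Serpinb1a, the next of the 10. Serpini2 made up 50.4% of the summed CPM of all 63 serpin genes in WT and 45.6% in KSR23 pancreas. On the same per-kilobase scale, the WT levels below Serpinb1a were 38.7 for Serpinf1, 36.0 for Serpine2, 23.9 for Serpinb6a, 15.3 for Serpini1, 3.17 for Serpinb9, 0.917 for Serpina3g, 0.498 for Serpina6 and 0.0715 for Serpina3n. Serpinf1 and Serpine2 are neighbours in this order that lay within their spread (SD 2.73 and 2.23). The order of the middle genes rested on the length used: with the joined exons of each gene as its length, the WT levels were 30.1 for Serpinf1, 9.59 for Serpine2, 8.57 for Serpini1 and 7.32 for Serpinb6a. In KSR23 pancreas Serpine2, Serpinf1 and Serpini1 had 51.4 ± 6.09, 35.6 ± 4.68 and 32.8 ± 2.59 CPM per kilobase of the longest coding transcript (SD, n = 5), and 13.7, 27.7 and 18.4 CPM per kilobase of joined exons, so their order was turned by the length as well.

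Serpina3g and Serpina3n belong to the Serpina3 cluster on chromosome 12, a mouse expansion of the single human antichymotrypsin gene. For these genes, which moved together, the 250 bases before the start of transcription are shown as the strand of the gene, from RefSeq on GRCm38.p6 (Serpina3g at chr12:104235897-104236146 and Serpina3n at chr12:104406458-104406707, both plus strand). Capitals mark TTCNNNGAA, the motif of the STAT factors that act below cytokine receptors, in Serpina3g, and the letters aligned with it in Serpina3n.
Serpina3g: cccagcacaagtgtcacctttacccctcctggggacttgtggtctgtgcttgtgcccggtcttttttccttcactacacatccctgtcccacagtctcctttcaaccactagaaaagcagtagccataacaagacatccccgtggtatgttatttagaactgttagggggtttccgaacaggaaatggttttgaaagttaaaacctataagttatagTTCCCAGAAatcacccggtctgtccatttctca
Serpina3n: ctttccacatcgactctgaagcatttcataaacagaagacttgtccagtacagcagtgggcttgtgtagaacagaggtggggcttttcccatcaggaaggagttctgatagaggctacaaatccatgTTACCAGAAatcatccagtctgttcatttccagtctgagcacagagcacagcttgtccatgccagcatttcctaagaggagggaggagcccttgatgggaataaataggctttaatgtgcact
The motif stood 33 bases before the RefSeq start of Serpina3g. In a local alignment of both promoters with 10 gaps, 111 of 136 aligned bases were identical (81.6%, gaps not counted). The alignment used each promoter to 50 bases after the start. It covered bases -96 to 49 around the RefSeq start of Serpina3g, so part of it is not printed above. Serpina3n read TTACCAGAA, 123 bases before its own RefSeq start, in place of TTCCCAGAA. The GENCODE starts of Serpina3g (104236245) and Serpina3n (104406729) lie downstream of the RefSeq starts, so both distances depend on the start used. TTCNNNGAA, which reads the same on both strands, occurred in 8.30% of 32851 promoters, each taken from 250 bases before to 50 bases after the start. It was also present in 1 of the 2 promoters of Serpinb6a, at 2 places, and in none of the promoters of Serpina3n, Serpinb9, Serpine2, Serpinf1, Serpini1 and Serpini2. A match of letters is a description of the window and not a bound site.

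Serpina3g (Spi2A) is a clade A serpin that stays inside cells, inhibits lysosomal cathepsins and is known to be induced by interferon. It lies on chromosome 12 (104236245 to 104241939, plus strand). It had 26, 78, 35, 56 and 44 counts in WT replicates 1 to 5 (0.911, 2.68, 1.23, 1.81 and 1.64 CPM) and 258, 137, 113, 235 and 240 counts in KSR23 replicates 1 to 5 (6.49, 4.06, 6.32, 5.85 and 4.29 CPM). All KSR23 values were above the highest WT value, that of replicate 2. The means were 1.65 ± 0.672 and 5.40 ± 1.15 CPM (SD, n = 5 each), with a log2 FC of 1.70 (SE 0.238, BH-adjusted p = 2.83e-05) and a 95% interval of 2.29 to 4.58 for the fold. Of the 75-base windows of its transcript, 91.1% occur in no other annotated gene, and the others are shared mainly with Serpina3h, so some of its reads could not be counted.

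Serpina3n is the main secreted antichymotrypsin of the mouse, an acute phase protein that inhibits granzyme B, cathepsin G and neutrophil elastase. The gene (chromosome 12, 104406729 to 104414329, plus strand) had 7, 2, 11, 0 and 1 counts in WT replicates 1 to 5. In KSR23 replicates 1 to 5 it had 93, 52, 27, 112 and 140 counts. These are levels of 0 to 0.386 CPM in WT and 1.51 to 2.79 CPM in KSR23 pancreas, with no overlap, and 3 WT values lie at or under 3 counts. The means were 0.148 ± 0.163 and 2.14 ± 0.580 CPM (SD, n = 5 each; two-sided exact permutation test, p = 0.00794). The fitted log2 FC given in the closing section is a description only, since too few WT counts stand behind it. The level stayed low in KSR23 pancreas, at 1.03 CPM per kilobase.

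Serpina6 encodes the corticosteroid-binding globulin, a plasma carrier of glucocorticoids that inhibits no protease and is made mainly by the liver. It lies on chromosome 12 as well (103646630 to 103657212, minus strand). It had 1.09, 0.687, 0.738, 0.742 and 0.745 CPM in WT replicates 1 to 5 and 1.08, 0.800, 1.57, 1.27 and 0.661 CPM in KSR23 replicates 1 to 5, from 20 to 51 counts. The groups overlapped, and the lowest of all values was that of KSR23 replicate 5. The log2 FC of 0.39 was not called (SE 0.281, BH-adjusted p = 0.31), with a 95% interval of 0.870 to 1.97 for the fold, so a rise to near the upper bound could not be told from no change. Of 10 hepatocyte marker genes, 3 were tested and 2 of them were lower. Their summed level was 146 to 183 CPM in WT and 39.8 to 49.99 CPM in KSR23 pancreas, most of it Ttr, a gene that islet cells also express. Without Ttr the sum was 4.49 to 7.12 CPM in WT and 3.47 to 9.22 CPM in KSR23 libraries.

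The 3 clade B genes lie on chromosome 13 and moved in different directions. Serpinb1a, the mouse leukocyte elastase inhibitor, blocks neutrophil elastase, cathepsin G and proteinase 3 (32842092 to 32851185, minus strand). It had 173, 161, 160, 174 and 152 CPM in WT replicates 1 to 5 and 281, 242, 221, 254 and 242 CPM in KSR23 replicates 1 to 5. The groups did not overlap. The means were 164 ± 9.25 and 248 ± 21.8 CPM (SD, n = 5 each), with a log2 FC of 0.60 (SE 0.0696, BH-adjusted p = 3.26e-06) and a 95% interval of 1.37 to 1.67 for the fold.

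Serpinb9, an inhibitor of granzyme B that protects leukocytes from their own granules, lies nearby (33003250 to 33017957, plus strand). It had 9.32, 11.1, 13.8, 11.6 and 9.20 CPM in WT replicates 1 to 5 and 16.5, 11.9, 19.8, 17.2 and 12.3 CPM in KSR23 replicates 1 to 5. In KSR23 mice, 3 values were above every WT value and 2 lay among them. The log2 FC was 0.49 (SE 0.144, BH-adjusted p = 0.015), from 10.99 ± 1.87 to 15.5 ± 3.37 CPM (SD, n = 5 each). Without WT replicates 1 and 2, which had high Reg3b, it was 0.42 and no longer called (BH-adjusted p = 0.09).

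Serpinb6a, an inhibitor of cathepsin G found in many cell types (33917918 to 34002794, minus strand), went the other way. It had 39.0, 38.8, 43.0, 41.9 and 35.3 CPM in WT replicates 1 to 5 and 35.3, 35.9, 34.6, 35.6 and 29.0 CPM in KSR23 replicates 1 to 5. The lowest WT value lay within the KSR23 range, and KSR23 replicate 5 was below all other libraries. The log2 FC was -0.22 (SE 0.0789, BH-adjusted p = 0.043), and this call was lost in 9 of 18 alternatives, with an adjusted p of up to 0.32. Only 84.8% of its 75-base windows are unique, and its exons overlap genes on the other strand, among them Nqo2 and Ripk1. The strand setting of the counting is not given in the sources used here, so reads of these genes may be mixed.

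Most of the tested neutrophil and macrophage markers were higher in KSR23 pancreas, whereas the clade B genes moved in different directions. Of 10 neutrophil markers, 8 were tested, of which 6 were higher and 2 were not called. Of 8 macrophage markers 6 were higher, 1 was lower and 1 was not called, with a summed level of 408 to 498 CPM in WT and 449 to 733 CPM in KSR23 pancreas. KSR23 replicate 3, with the most neutrophil markers, had 221 CPM of Serpinb1a, the lowest of the 5 KSR23 mice, 19.8 CPM of Serpinb9, the highest of all 10, and 6.32 CPM of Serpina3g, the second highest. Without that library the log2 FC was 0.64 for Serpinb1a (BH-adjusted p = 9.45e-07), 0.40 for Serpinb9 (BH-adjusted p = 0.036) and 1.64 for Serpina3g (BH-adjusted p = 4.31e-05). Of 7 cytotoxic lymphocyte markers 1 was tested, Cd3e, and it was lower (means of 4.01 CPM in WT and 1.45 CPM in KSR23). The summed level was 3.65 to 5.32 CPM in WT, most of it Cd3e, and 1.31 to 4.92 CPM in KSR23 pancreas. The other markers of this list had at most 29 counts in any library, so the sum does not speak for them. The part of neutrophils, macrophages and other leukocytes in these levels was not tested.

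**Figure D3:**
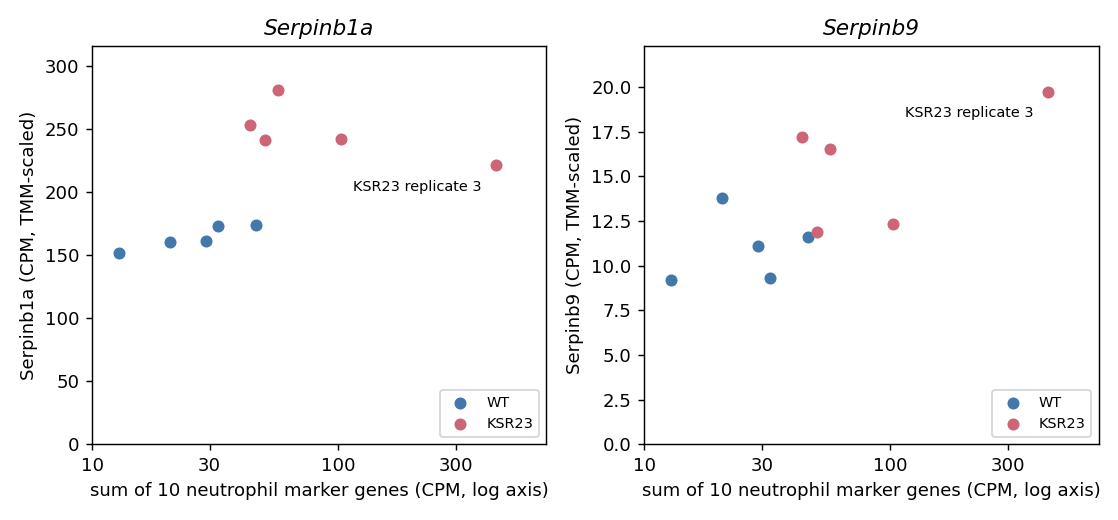
Levels of Serpinb1a and Serpinb9 (CPM, from 0) against the summed level of 10 neutrophil marker genes (CPM, log axis) in 5 WT and 5 KSR23 libraries, 1 point per library. KSR23 replicate 3 lies at 438 CPM of neutrophil markers, with the lowest KSR23 value of Serpinb1a (221 CPM) and the highest value of Serpinb9 (19.8 CPM).

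Serpine2 and Serpinf1 are secreted serpins typical of stromal cells. Serpine2 (protease nexin-1) inhibits thrombin, urokinase and plasmin at the cell surface and lies on chromosome 1 (79794197 to 79861180, minus strand). It had 81.6, 82.5, 74.3, 84.8 and 74.2 CPM in WT replicates 1 to 5 and 108, 129, 110, 96.0 and 125 CPM in KSR23 replicates 1 to 5, with no overlap. The means were 79.5 ± 4.94 and 114 ± 13.5 CPM (SD, n = 5 each), a log2 FC of 0.52 (SE 0.0797, BH-adjusted p = 8.51e-05) with a 95% interval of 1.27 to 1.60 for the fold.

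Serpinf1 encodes PEDF (pigment epithelium-derived factor), which inhibits no protease and restrains the growth of vessels. The gene (chromosome 11, 75409769 to 75422701, minus strand) had 78.7, 68.9, 65.4, 69.2 and 72.7 CPM in WT replicates 1 to 5 and 54.8, 67.3, 75.7, 70.2 and 58.4 CPM in KSR23 replicates 1 to 5. The groups overlapped widely, and the log2 FC of -0.12 was not called (SE 0.085, BH-adjusted p = 0.29), with a 95% interval of 0.811 to 1.04 for the fold. Among 9 stromal marker genes 1 was higher, 2 were lower and 6 were not called, and their summed level overlapped between WT (8835 to 10970 CPM) and KSR23 pancreas (7850 to 10210 CPM).

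Serpini1 (neuroserpin) is a secreted inhibitor of tissue plasminogen activator, best known from neurons, and had the lowest adjusted p of the 10 genes. It lies on chromosome 3 (75557547 to 75643495, plus strand), the chromosome and opposite strand of Serpini2, with Wdr49 and Pdcd10 between both genes. It had 59.4, 68.8, 66.3, 63.5 and 54.1 CPM in WT replicates 1 to 5 and 126, 136, 122, 136 and 150 CPM in KSR23 replicates 1 to 5. The lowest KSR23 value was well above the highest WT value. The means were 62.4 ± 5.81 and 134 ± 10.6 CPM (SD, n = 5 each), with a log2 FC of 1.11 (SE 0.0765, BH-adjusted p = 4.46e-09) and a 95% interval of 1.93 to 2.40 for the fold. Of 10 endocrine marker genes 7 were lower, 1 was higher and 2 were not called, with a summed level of 7943 to 11100 CPM in WT and 4948 to 6181 CPM in KSR23 pancreas. Of 6 duct marker genes 5 were higher and 1 was not called, with 931 to 1044 CPM in WT and 1541 to 1702 CPM in KSR23 pancreas. The part of these cell types in the Serpini1 level was not tested.

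The clade I genes Serpini1 and Serpini2 differed in the comparison, Serpini1 being higher in every KSR23 mouse and Serpini2 overlapping between the groups, and the 250 bases before each start are shown for that reason, as the strand of each gene (RefSeq, GRCm38.p6; Serpini1 at chr3:75557243-75557492, plus strand, Serpini2 at chr3:75270079-75270328, minus strand). Capitals mark CACCTG or its complement CAGGTG, the kind of E box that acinar basic helix-loop-helix factors such as PTF1 can bind.
Serpini1: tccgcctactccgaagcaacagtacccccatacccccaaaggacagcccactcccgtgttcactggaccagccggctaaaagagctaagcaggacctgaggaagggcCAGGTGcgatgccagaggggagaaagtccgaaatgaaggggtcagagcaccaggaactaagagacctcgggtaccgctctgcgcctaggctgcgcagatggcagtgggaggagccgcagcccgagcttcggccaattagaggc
Serpini2: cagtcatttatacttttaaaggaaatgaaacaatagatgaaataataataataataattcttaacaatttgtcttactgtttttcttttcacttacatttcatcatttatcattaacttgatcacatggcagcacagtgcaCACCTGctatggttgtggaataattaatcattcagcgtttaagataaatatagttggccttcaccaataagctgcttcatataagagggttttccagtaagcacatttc
CACCTG stood 109 bases before the RefSeq start of Serpini2, and on the other strand 143 bases before that of Serpini1. The GENCODE start of Serpini1 (75557547) lies downstream of its RefSeq start. Searched on both strands, CACCTG occurred in 20.2% of 32851 promoters, and among the other members in the second promoter of Serpinb6a. Both clade I genes carried it, so it does not set them apart. The match is one of letters only, and binding by PTF1 or another factor was not tested. Promoters were found for 8 of the 10 genes, with 9 in all, and Serpina6 and Serpinb1a had no entry in the table.

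**Figure D4:**
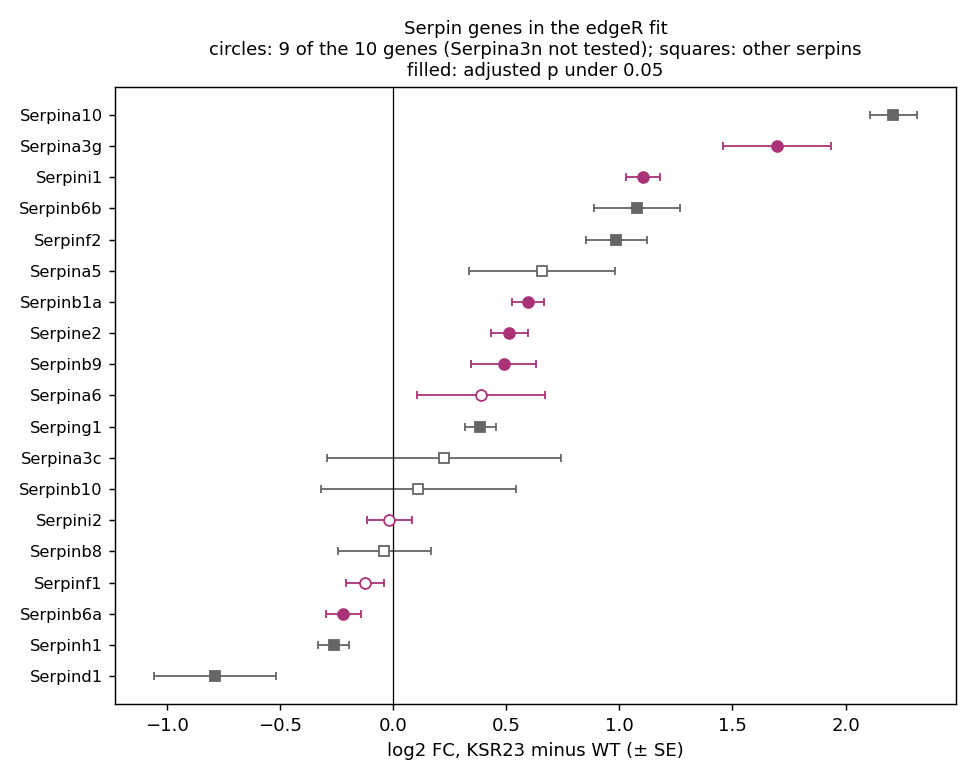
Log2 FC of KSR23 against WT pancreas with the standard error as a bar, for the 9 serpin members and 10 other serpin genes tested with edgeR. Serpina3n was not tested. Points to the right of 0 are higher in KSR23 pancreas. Serpina10 (2.21), Serpina3g (1.70), Serpini1 (1.11) and Serpinb6b (1.08) lie beyond 1.

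Of the 53 other serpin genes, 32 had fewer than 10 counts in every library, 15 of them with 0 counts throughout, and 10 entered the test. Of these, 4 were higher, 2 were lower and 4 were not called, with a median log2 FC of 0.31. Serpina10, a plasma inhibitor of factor Xa that works with protein Z, rose from 4.74 to 21.9 CPM (log2 FC 2.21, SE 0.105, BH-adjusted p = 2.68e-11). Serpinb6b, a relative of Serpinb6a on the same chromosome, rose from 3.03 to 6.43 CPM (log2 FC 1.08, SE 0.19, BH-adjusted p = 0.00032), against the fall of Serpinb6a. Serpinf2 rose from 12.35 to 24.45 CPM (log2 FC 0.99, BH-adjusted p = 2.03e-05) and Serping1 from 135 to 177 CPM (log2 FC 0.39, BH-adjusted p = 0.00029), both without overlap. Serpinh1, a collagen chaperone and the most abundant of the 53 per kilobase in WT, fell from 397 to 331 CPM (log2 FC -0.26, BH-adjusted p = 0.0071), and Serpind1, an inhibitor of thrombin, had a log2 FC of -0.79 with overlapping groups (BH-adjusted p = 0.034). Both lower calls were lost with libraries scaled by their totals alone (BH-adjusted p = 0.075 for Serpinh1 and 0.061 for Serpind1). Serpina3i and Serpina3f, chosen after their values were seen, followed the pattern of Serpina3n. Not every gene of the cluster did so, as Serpina3c was tested and not called (log2 FC 0.22, SE 0.517, BH-adjusted p = 0.78). Serpina3i had 2, 1, 0, 0 and 0 counts in WT and 227, 104, 34, 155 and 193 counts in KSR23 replicates 1 to 5. Serpina3f had 0, 0, 3, 0 and 0 counts in WT and 23, 11, 12, 17 and 12 counts in KSR23 replicates 1 to 5. Summed over all 63 genes, serpins had 2004 ± 63.2 CPM in WT and 2194 ± 163 CPM in KSR23 pancreas (SD, n = 5 each), and the ranges overlapped.

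The proteases that serpins act on and other kinds of inhibitor were counted for comparison. Of 31 protease genes, 24 were tested, with 10 higher, 7 lower and 7 not called, and a median log2 FC of 0.08. The digestive proteases Ctrl (-2.90), Cela1 (-2.53) and Ctrc (-2.11) had the lowest log2 FC, while Prss2 rose by 0.37. Cathepsins that Serpina3g inhibits rose with it, Ctsl from 608 to 1113 CPM (log2 FC 0.87) and Ctsb from 400.3 to 535 CPM (log2 FC 0.42). F2, which encodes prothrombin, a target of Serpine2 once activated, rose from 5.37 to 22.2 CPM (log2 FC 2.05, BH-adjusted p = 1.07e-09). For its other targets, Plau (urokinase) had at most 20 counts and Plg (plasminogen) at most 9 counts in any library, and neither was tested. Plat, the tissue plasminogen activator that Serpini1 inhibits, had 56.5 ± 3.90 CPM in WT and 59.4 ± 5.16 CPM in KSR23 pancreas (SD, n = 5 each), a log2 FC of 0.07 that was not called (BH-adjusted p = 0.50). Of the neutrophil and cytotoxic granule proteases that the clade B genes inhibit, Ctsg had at most 27 counts and Gzmb at most 11 counts in any library. Prtn3 had 2 to 30 counts in WT and 48 to 84 counts in KSR23 libraries (means 0.530 and 2.18 CPM) and was not tested, and Elane had a log2 FC of 1.48 that was not called (BH-adjusted p = 0.12).

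Of 26 inhibitor genes outside the serpin family, 22 were tested, with 8 higher, 2 lower and 12 not called, and a median log2 FC of 0.07. Itih4, an acute phase plasma protein, rose by 3.81 on the log2 scale, Wfdc18, a small secreted protein of the WAP family, by 3.26, and Timp1, an inhibitor of matrix metalloproteases, by 1.996. Spink3, the trypsin inhibitor that acinar cells secrete, had 1488 ± 390.2 CPM in WT and 1547 ± 87.4 CPM in KSR23 pancreas (SD, n = 5 each), a log2 FC of 0.06 that was not called (BH-adjusted p = 0.79). As for Serpini2, the groups were not told apart for this gene.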

How the data were processed

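Pancreas RNA was primed with oligo-dT, the 75 bp single-end reads went through TopHat 2.1.0 (mm10), and the authors deposited raw gene counts of their unique alignments from htseq-count by strict intersection. The annotation file and strand setting are not given in the sources used here. Reads copied by PCR carry no molecular identifiers, so floors of 3 counts cover counting error only, whereas the fold intervals come from edgeR's fit and include the spread between libraries. Genes under 5 counts in any library were dropped, leaving 13882 of 24062. Counts were scaled by TMM and compared with edgeR 4.0.16's quasi-likelihood test in R 4.3.3, adjusted by the Benjamini-Hochberg method. The standard error is the log2 FC divided by the square root of F. Single values were compared by two-sided exact permutation tests over 252 splits. The fit was tested on simulated data. Alternatives were RLE size factors, library totals, filterByExpr, no filter, the likelihood ratio test, DESeq2 1.42.0, a replicate block, and each library left out. The fit without WT replicates 1 and 2, the ratios with trypsinogen genes, and the further settings for Serpina3n on filterByExpr genes were added after seeing the data.

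The members and lists were chosen with earlier results of these data known. Named genes were the members, other serpins called beyond a log2 FC of 1 or most abundant per kilobase, and at most 3 genes per list with the largest changes, plus textbook targets. Spink3, Prss2, Prss3, Try10, Serpind1, Serpinf2, Serping1, Serpina3c, Serpina3i, Serpina3f and Reg3b were named after their values were seen. Positions, transcripts and windows are from GENCODE M21, promoters from RefSeq GRCm38.p6, and the promoter alignment used Biopython 1.88. The lowest chi-square per degree of freedom between libraries of a group was 11.4, so none is a copy of another. Jejunum libraries were not analysed here.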

Additional observations from a re-analysis of the deposited data

Results flagged for a closer look

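In 22 groups of 5 values tested for a library far from the other 4 (Dixon's test, of which chance flags about 1.1), 2 values stood out. Serpina6 had 1.09 CPM in WT replicate 1, from 31 counts, against 0.687 to 0.745 CPM in the other 4 WT mice. Serpinb6a had 29.0 CPM in KSR23 replicate 5, against 34.6 to 35.9 CPM in the other 4 KSR23 mice.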

How the results depend on the processing

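Under library totals in place of TMM, the all-gene median of log2 FC went from -0.01 to 0.09, 3075 genes were higher and 1161 lower in place of 2250 and 2049, Serpini2 changed sign (0.0745) and Serpinb6a lost its call (log2 FC -0.12, BH-adjusted p = 0.32). Leaving out single libraries, the log2 FC of Serpini2 ran from -0.0871 to 0.0678, above 0 without WT replicate 4 (0.0216) and KSR23 replicate 3 (0.0678). That of Serpinb6a ran from -0.26 to -0.16, and its call was lost without WT replicate 1, 2, 3 or 4 or KSR23 replicate 3, 4 or 5. Without WT replicates 1 and 2 together, Serpinb6a (-0.23, BH-adjusted p = 0.086) and Serpinb9 (0.42, BH-adjusted p = 0.09) lost their calls. Serpina3g, Serpinb1a, Serpine2 and Serpini1 kept direction and call in 18 of 18 alternatives. Serpina3n entered only the fits on filterByExpr genes or without a filter, and did so through its KSR23 counts, so its fitted log2 FC there (3.84, or 4.57 without WT replicate 3) is a description and its calls support nothing. Serpini2, Serpinf1 and Serpina6 were called in none. Between 4 and 7 members were called across the 18 alternatives, 7 only in the fits that Serpina3n entered. Over all genes, 3321 to 4652 were called in these alternatives, against 4299 in the main fit. The log2 ratio of Serpini2 to acinar markers (0.72) was reversed with trypsinogen genes in place of the markers (-0.42). With the replicate number as a block, 6 members were called, as without it, and 3749 of all genes, against 4299 without it. Same-numbered mice did not deviate together (correlations from -0.111 to 0.0661). The labels name no litter, and a weak effect of litter could be missed here, so whether the numbers pair mice is not known. Below about 3 counts, or 0.0536 to 0.168 CPM, a level cannot be told from 0, which limits Serpina3n in WT pancreas.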
